A study of Mus musculus with 8 samples.

Results

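The genes described here are 10 transcription and chromatin factors that the mouse oocyte supplies to the embryo and that have been linked to the start of its own transcription: Pou5f1, Sall4, Smarca4, Trim24, Yap1, Tead4, Nr5a2, Rarg, Nfya and Ctcf. They were taken as a list of symbols. Of the 10, 9 were among the 15962 genes present in the tables of all libraries, and 8 passed the filter on low values, which was at least 1 TPM (a transcript's share of a library after correction for gene length) in at least 2 libraries. Tead4 had no row in any of the 8 tables and so has no value here. Rarg was listed in every table but stayed below 1 TPM throughout, and it was described without a test.

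RNA was measured in oocytes of ICR female mice that were 6 weeks old. The control oocytes were not injected and were taken at the germinal vesicle stage (GV), when meiosis is still arrested, or after culture to metaphase of the second division (MII). The injected oocytes received capped RNA for Myc-tagged BTG4 at the GV stage and were collected at MII. The RNA encoded wild-type BTG4 (Btg4wt) or a mutant in which a threonine and the pair of serines next to it were changed to 3 alanines (Btg4tm). All injected oocytes also carried their own intact Btg4 gene, so Btg4tm is an overexpression on a wild-type background and not a replacement. The paper adds that both forms of exogenous BTG4 seemed to lower the oocyte's own BTG4, a point it leaves to be clarified. Each of the 4 groups held 2 libraries of 15 oocytes. The protocol speaks of 3 samples per group, and 2 were analysed here. Nothing in the sources says whether the 2 libraries of a group came from separate animals, so the p-values measure the spread between libraries, which may be technical.

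A growing oocyte stores messenger RNAs that direct the first steps of the embryo, because transcription stops before maturation and resumes only after fertilization. During maturation many of these messages lose their poly(A) tails through the CCR4-NOT deadenylase, to which BTG4 is an adaptor, and are then removed, whereas others gain tails and are kept for translation. Factors for zygotic genome activation act at the end of this chain, since their messages have to outlast maturation if the embryo is to make the proteins from them. The first strand was primed with oligo(dT), so a value reflects the tail of a message as well as its amount, and these could not be told apart here.

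The 3′ ends of the messages are therefore shown for the 4 factors on which the results below turn. In the annotated main transcripts (GRCm38, GENCODE M21), the last 100 bases were searched on the sense strand for the poly(A) signal AATAAA and for TTTTAT and TTTTAAT, the letters of cytoplasmic polyadenylation elements. Capitals mark the matches, and the rest of each stretch is given in lower case from 5′ to 3′.
Yap1 (chr9:7932003-7932031, minus strand, 3′ UTR): ttttacAATAAAccaatTTTTATaatctt
Nfya (chr17:48386900-48386929, minus strand, 3′ UTR): tgcttttcttTTTTAATAAAtttataaaaa
Sall4 (chr2:168748343-168748368, minus strand, 3′ UTR): aaggtctgaaAATAAAgtgaatgttt
Ctcf (chr8:105682887-105682912, plus strand, 3′ UTR): ctgtacagctAATAAAtcataacgga
The poly(A) signals of these transcripts began 27, 27, 27 and 26 bases before the end, in the order shown. Yap1 held TTTTAT beginning 16 bases before its end, and Nfya held TTTTAAT beginning 31 bases before its end, where it overlaps the poly(A) signal. No such element was found in this window of the other factors. Pou5f1, Smarca4, Tead4 and Rarg also carried AATAAA, and Trim24 and Nr5a2 held none of the searched letters. Among 10481 tested genes with a 3′ UTR of at least 100 bases, 66.6% held AATAAA, 15.5% TTTTAT, 5.89% TTTTAAT, and 20.1% at least 1 of the last pair. A match is a description of the sequence and was not tested against the values.

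The factors also differed in the length of their 3′ UTRs. These ran from 149 bases in Nr5a2 and 221 in Pou5f1 to 2400 in Nfya and 2498 in Yap1, beside a median of 942 over 11021 tested genes. For Pou5f1 (chr17:35506018-35510772, plus strand), 15.9% of the 50-base stretches of the transcript also occurred in transcripts of other genes, mainly the predicted genes Gm19553 and Gm5712, and 14.1% of its exonic bases overlapped an exon of Gm19553. Its values are therefore less certain than those of the others, because the authors removed reads mapped with a quality under 10 and counted without strand. Ctcf (chr8:105636568-105682922, plus strand) shared no such stretch, but 7.61% of its exonic bases overlapped Agrp and Gm5914. Sall4 (chr2:168748332-168767943, minus strand) overlapped Gm14261 over 9.5% of its exonic bases. For Nfya (chr17:48386885-48409906, minus strand) and Trim24 (chr6:37870811-37966296, plus strand), no overlap and no shared stretch was found.

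Libraries were brought to one scale by median-of-ratios factors between 0.976 and 1.14, and the deposited TPM summed to between 996199 and 998615. TPM keep no record of depth, so the counting error is unknown and precision rests on 2 libraries per group. Replicates of a group correlated with Pearson's r between 0.982 and 0.987 on the log2 scale over genes, and no pair held identical values. All 11 oocyte markers had values, and their summed scaled TPM lay between 29189 and 30515 in GV, 20495 and 22293 in MII, 23045 and 24234 in Btg4wt, and 30430 and 30496 in Btg4tm. Of 17 markers of cumulus and granulosa cells, 6 had values in all tables, with a sum between 22.6 and 33.4, most of it from Cyp19a1 at 15.3 to 26. The markers Amh, Foxl2 and Amhr2 had no row in any table. Of the 4 that were tested, Inha was called lower in MII and higher in Btg4tm (limma adjusted p = 0.0049 and 0.006), at 3.15 ± 1.55 scaled TPM in GV, 0.259 ± 0.366 in MII, 1.44 ± 0.543 in Btg4wt and 7.29 ± 3.2 in Btg4tm. Under the median of ratios, Cyp19a1 and Kitl had log2 fold changes of 0.63 and 0.94 in MII against GV (limma adjusted p = 0.0039 and 0.0031), and of -0.23 and -0.76 in Btg4tm against Btg4wt (limma adjusted p = 0.2 and 0.012), all under the fold limit of 1 used below. Star was at or below 1.17 scaled TPM and was not called. The mitochondrially encoded share of the TPM was 0.626% and 0.652% in GV, 2.71% and 2.6% in MII, 2.05% and 1.75% in Btg4wt, and 0.765% and 1.02% in Btg4tm. This share, the oocyte markers and some of the cumulus and granulosa markers moved with the groups, and their part in the changes given below was not tested.

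Within a library, TPM can be compared between genes because they are per length. In GV oocytes Sall4 stood first with a mean of 344 scaled TPM, above 97.4% of the 15962 genes, followed by Nfya with 69 and Ctcf with 45.3. Trim24 came next at 20.2. The libraries of Nr5a2, Smarca4, Pou5f1 and Yap1 lay between 8.58 and 14 scaled TPM, and each overlapped its neighbour in this order. Rarg stood last, at a level with 2.16% of the 15962 genes below it. In MII oocytes the same 3 factors led the order, with 971 for Sall4, 258 for Nfya and 125 for Ctcf. In Btg4tm oocytes Ctcf (95) stood above Nfya (47), the reverse of the order in the other groups.

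**Figure D1:**
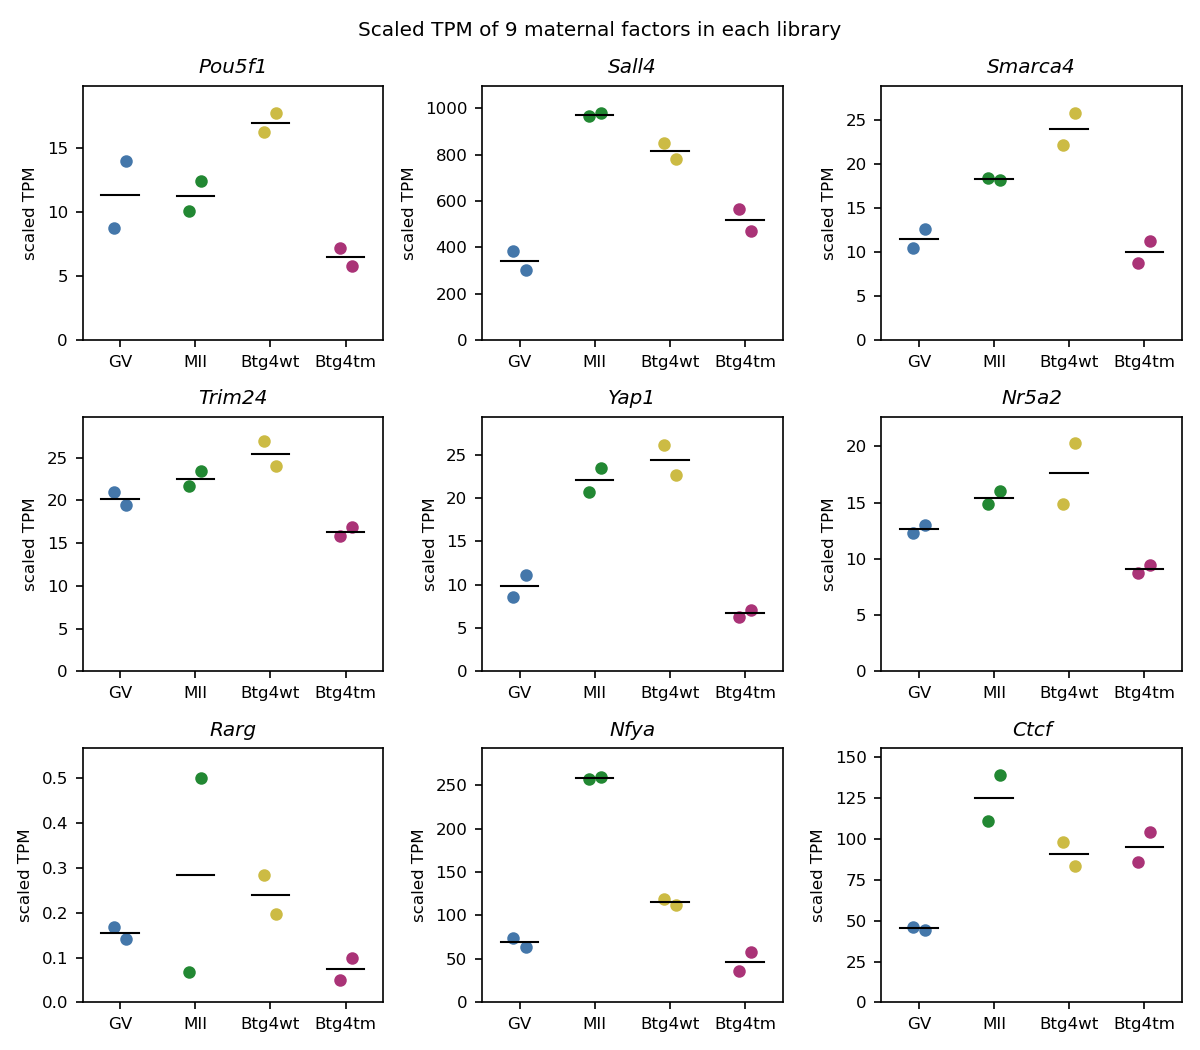
Scaled TPM (y axis, linear and starting at 0, with its own range in each panel) of the 9 factors with values, in the 4 groups (x axis). Points are the 2 libraries of a group and the line is their mean. Yap1 and Nfya were high in MII and lower in Btg4tm, whereas the Ctcf libraries of Btg4wt (98.3 and 83.5) and Btg4tm (85.9 and 104) overlapped.

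The first comparison, MII with GV, asked how the stored messages of these factors stood after maturation, and the second, Btg4tm with Btg4wt, what the alanine mutant changed. A gene was called where the limma adjusted p-value was under 0.05 and the absolute log2 fold change over 1, and "rose" and "fell" are used for called genes alone. In MII against GV, 4 of the 8 tested factors rose (Sall4, Yap1, Nfya and Ctcf) and 0 fell, although under scaling to mitochondrial RNA 0 rose and 4 others fell. Over all 13968 genes tested, 12.5% were called higher and 23.9% lower, and under scaling to mitochondrial RNA 0.0501% and 81.6%. In Btg4tm against Btg4wt, 4 of 8 fell (Pou5f1, Smarca4, Yap1 and Nfya) and 0 rose, while under scaling to mitochondrial RNA 0 fell and Ctcf alone rose. Here 7.88% of all genes were called lower and 18.1% higher, and under scaling to mitochondrial RNA 0.494% and 43.6%. Counts under that scaling, those of the gene lists included, stand against a background in which most genes were lower in MII and many higher in Btg4tm. Yap1 and Nfya were called in both comparisons, higher in MII and lower in Btg4tm, and in neither with scaling to mitochondrial RNA. The share of all genes called this way in both was not counted, so nothing particular to these factors can be read from it. By the adjusted p-value of limma alone, 5 factors were higher in MII, beside 29.9% of all genes, and 7 were lower in Btg4tm, beside 23.3%. An unadjusted p under 0.05 in limma gave the same counts, with 0 factors in the other directions. Over all genes it gave 32% higher and 34.5% lower in MII, and 29.1% higher and 26.5% lower in Btg4tm.

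The 8 factors had a median log2 fold change of 0.86 in MII against GV, beside -0.0016 over all genes, and of -1.21 beside -1.74 under scaling to mitochondrial RNA. In Btg4tm against Btg4wt the median was -1.03, beside 0.0076 over all genes, and -0.02 beside 0.88 under that scaling. Both MII libraries lay above both GV libraries for 7 of the 8 factors, as they did for 41.1% of all genes, and the exception was Pou5f1. Both Btg4tm libraries lay below both Btg4wt libraries for 7 of 8, as for 36.7% of all genes, and the exception was Ctcf.

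**Figure D2:**
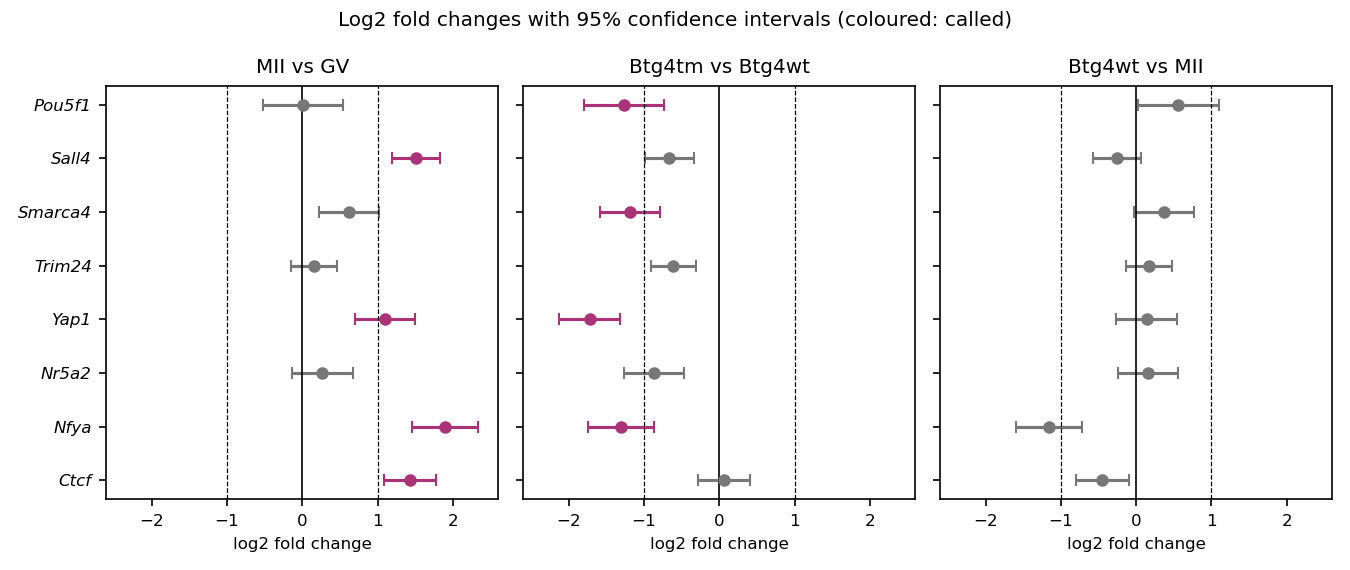
Log2 fold change (x axis) of the 8 tested factors (y axis) in 3 comparisons, with points for the estimates and bars for 95% confidence intervals from limma. Coloured points are called and dashed lines mark the fold limit. Ctcf was higher in MII (1.43) and close to 0 in Btg4tm (0.06), and scaling to mitochondrial RNA turns the first to -0.76 and the second to 1.14.

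POU5F1 and SALL4 belong to the transcription factor network of pluripotent cells, in which SALL4 is a zinc finger protein that acts upstream of Pou5f1. Sall4 was measured at 386 and 301 scaled TPM in GV, 965 and 977 in MII, 849 and 782 in Btg4wt, and 564 and 469 in Btg4tm. No groups overlapped, and the MII libraries were the highest. Sall4 rose in MII by a log2 fold change of 1.51 (SE 0.14, limma adjusted p = 3.7e-05), or from 344 ± 59.8 to 971 ± 8.05 (SD, n = 2). In Btg4tm it was lower than in Btg4wt by a log2 fold change of -0.66 (SE 0.14, limma adjusted p = 0.0047), which did not reach the fold limit.

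Pou5f1 behaved otherwise. Its values were 8.73 and 14 scaled TPM in GV, 10.1 and 12.4 in MII, 16.2 and 17.7 in Btg4wt, and 7.23 and 5.77 in Btg4tm. The GV and MII libraries overlapped, and the Btg4wt libraries were above all the others. The change in MII was 0.01 with a 95% confidence interval from -0.53 to 0.54 (limma adjusted p = 0.98). In Btg4tm, Pou5f1 fell against Btg4wt by 1.26 on the log2 scale (SE 0.232, limma adjusted p = 0.0023). At 6.5 ± 1.03 in Btg4tm and 16.9 ± 1.02 in Btg4wt (SD, n = 2), this was a 2.4-fold difference. Given its overlap with Gm19553, reads of the 2 genes could not be separated in full.

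Of 18 other genes of the POU5F1 and SALL4 network, 11 were tested. In MII, 3 rose and 1 fell (median 0.83), which scaling to mitochondrial RNA turned into 0 and 7 (median -1.26). In Btg4tm, 0 rose and 2 fell (median -0.41), against 2 and 0 (median 0.52) under that scaling. An unadjusted p in limma under 0.05 gave 0 higher and 5 lower in Btg4tm, beside 29.1% and 26.5% of all genes. In MII this rule gave 7 higher and 1 lower, beside 32% and 34.5%. Lin28a, an RNA-binding protein that blocks let-7 maturation, stood at 19.9 ± 1.9 scaled TPM in GV, 61.4 ± 3.19 in MII, 60.5 ± 3.23 in Btg4wt and 18.5 ± 1.96 in Btg4tm. It rose in MII by 1.58 and fell in Btg4tm by 1.66 on the log2 scale (limma adjusted p = 2.2e-05 and 2.9e-05). Klf17, a Kruppel-like factor abundant in oocytes, rose in MII from 522 ± 18.6 to 1476 ± 45.2 scaled TPM. Sox15, a SOX family factor, fell in MII from 76 ± 1.83 to 17 ± 0.0354, and its Btg4tm and Btg4wt libraries overlapped.

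SMARCA4, also called BRG1, is an ATPase of the SWI/SNF complexes that move nucleosomes. Smarca4 was measured at 10.5 and 12.6 scaled TPM in GV, 18.4 and 18.2 in MII, 22.2 and 25.8 in Btg4wt, and 8.74 and 11.3 in Btg4tm. The MII and Btg4wt libraries were all above those of GV and Btg4tm, which overlapped each other. In MII the log2 fold change was 0.63 (SE 0.173, limma adjusted p = 0.013), under the fold limit, and the adjusted p was 0.083 without the first GV library and 0.053 without the first MII library. In Btg4tm, Smarca4 fell by 1.19 on the log2 scale (SE 0.173, limma adjusted p = 0.00068), from 24 ± 2.57 to 10 ± 1.8 (SD, n = 2).

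TRIM24 is a coregulator of nuclear receptors that reads histone marks through its PHD finger and bromodomain. Trim24 had 21 and 19.4 scaled TPM in GV, 21.7 and 23.4 in MII, 26.9 and 24 in Btg4wt, and 15.8 and 16.9 in Btg4tm. Its Btg4tm libraries were below all the others, and the remaining groups lay close together. The change in MII was 0.15 (95% confidence interval -0.15 to 0.46, limma adjusted p = 0.34), and that in Btg4tm was -0.61 (SE 0.133, limma adjusted p = 0.0056), under the fold limit.

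The other listed subunits of SWI/SNF complexes were called in both directions under the main scaling, as were all genes. Over all genes, 12.5% were called higher and 23.9% lower in MII, and 18.1% and 7.88% in Btg4tm. Of 21 listed, 19 were tested, with 4 higher and 2 lower in MII (median 0.28), or 0 and 14 under scaling to mitochondrial RNA. In Btg4tm, 1 was higher and 2 were lower (median -0.10), or 8 and 1 under that scaling. Smarcb1, a core subunit, went from 35.6 ± 2.13 scaled TPM in GV to 8.3 ± 1.7 in MII, and from 10.5 ± 0.938 in Btg4wt to 31.4 ± 1.4 in Btg4tm. It thus fell in MII (-1.99, limma adjusted p = 2.1e-05) and rose in Btg4tm (1.50, limma adjusted p = 0.00015), both opposite in sign to Smarca4 under the median of ratios. Arid1a, the DNA-binding subunit of the BAF form, rose in MII by 1.55, and Brd7, a bromodomain subunit of the PBAF form, by 1.21. In Btg4tm these had log2 fold changes of -0.72 and -0.27 and were not called.

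YAP1 is the coactivator that the Hippo kinases keep out of the nucleus, and TEAD4 is one of its DNA-binding partners. Yap1 was measured at 8.58 and 11.1 scaled TPM in GV, 20.7 and 23.5 in MII, 26.1 and 22.7 in Btg4wt, and 6.3 and 7.1 in Btg4tm. The MII and Btg4wt libraries overlapped, and both groups were far above GV and Btg4tm. Yap1 rose in MII by 1.10 on the log2 scale (SE 0.174, 95% confidence interval 0.70 to 1.50, limma adjusted p = 0.00074). That increase was near the fold limit, at 0.95 with the TPM as deposited and 0.93 without the first GV library. In Btg4tm, Yap1 fell by 1.72 (SE 0.174, limma adjusted p = 9.7e-05), from 24.4 ± 2.45 to 6.7 ± 0.57 (SD, n = 2), a 3.3-fold difference. A lower change than this was found for 1.02% of tested genes. This was the largest change among the factors in that comparison under the main scaling. With scaling to mitochondrial RNA the log2 fold change was -0.72 (limma adjusted p = 0.019), under the fold limit. Under that scaling the changes of the other factors called here were -0.27 for Pou5f1, -0.17 for Smarca4 and -0.24 for Nfya (limma adjusted p = 0.45, 0.53 and 0.28). The Yap1 message carries the TTTTAT element and the longest 3′ UTR of the factors.

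Tead4 gave no value, and the other members of its family were low. Of 16 genes of the Hippo pathway and TEAD cofactors, 12 were tested, with 0 higher and 1 lower in MII (median 0.51), or 0 and 11 under scaling to mitochondrial RNA. In Btg4tm, 1 was higher and 3 were lower (median -0.67), or 1 and 1 under that scaling. By an unadjusted p in limma under 0.05, 7 of the 12 were higher and 1 lower in MII, beside 32% and 34.5% of all genes. In Btg4tm this rule gave 1 higher and 8 lower, beside 29.1% and 26.5%. Tead2 was the TEAD gene that passed the filter, at 1.57 scaled TPM in GV and 1.97 in MII. Nf2, which encodes the Hippo activator merlin, fell in Btg4tm from 22.5 ± 0.432 to 8.01 ± 0.712 (-1.38, limma adjusted p = 0.00035). Its log2 fold change in MII was 0.88 and not called. The remaining called genes were singled out after their values were seen. Amot and Lats1, which restrain YAP1 by binding and by phosphorylation, fell in Btg4tm by 1.94 and 1.46 on the log2 scale, from 8.96 ± 0.255 and 9.53 ± 1.22 scaled TPM. Wwtr1, which encodes the YAP1 paralogue TAZ, went the other way, from 9.06 ± 0.751 in GV to 1.5 ± 0.135 in MII and from 1.59 ± 0.0168 in Btg4wt to 8.1 ± 3.19 in Btg4tm. It fell in MII (-2.01, limma adjusted p = 0.00021) and rose in Btg4tm (1.77, limma adjusted p = 0.00066), so under the median of ratios the paralogues were called in opposite directions in both comparisons.

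NR5A2 is an orphan nuclear receptor that binds DNA as a monomer, and RARG is a receptor for retinoic acid. Nr5a2 had 12.3 and 13 scaled TPM in GV, 14.9 and 16 in MII, 14.9 and 20.3 in Btg4wt, and 8.71 and 9.43 in Btg4tm. The Btg4tm libraries were the lowest and the Btg4wt libraries spread over the MII range. The change in MII was 0.27 (95% confidence interval -0.13 to 0.67, limma adjusted p = 0.21). In Btg4tm it was -0.87 (SE 0.174, limma adjusted p = 0.0036), just under the fold limit, and it passed that limit with quantile normalization (-1.06) and without the first Btg4wt library (-1.09). Granulosa cells also express Nr5a2. Of their markers, Kitl was lower in Btg4tm (2.71 ± 0.00748 scaled TPM) than in Btg4wt (5.28 ± 0.581) and Inha higher (7.29 ± 3.2 beside 1.44 ± 0.543), and the part of these cells in the Nr5a2 values was not tested. Rarg was measured at 0.167 and 0.142 scaled TPM in GV, 0.0685 and 0.501 in MII, 0.284 and 0.197 in Btg4wt, and 0.0509 and 0.1 in Btg4tm. The MII libraries alone spanned nearly this whole range, and at such levels no order of the groups could be read.

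Of 23 retinoid and nuclear receptor partners, 14 were tested. In MII, 4 rose and 2 fell (median 0.54), or 0 and 8 under scaling to mitochondrial RNA. In Btg4tm, 2 rose and 2 fell (median -0.47), or 3 and 0 under that scaling. Over all genes, 12.5% were called higher and 23.9% lower in MII, and 18.1% and 7.88% in Btg4tm. An unadjusted p in limma under 0.05 gave 9 higher and 2 lower in MII, beside 32% and 34.5% of all genes. In Btg4tm this rule gave 2 higher and 9 lower, beside 29.1% and 26.5%. Esrrb, an orphan receptor of pluripotent cells, fell in MII from 58.1 ± 2.03 to 9.43 ± 1.29 scaled TPM and rose from 8.41 ± 0.327 in Btg4wt to 40.9 ± 4.92 in Btg4tm. The coactivator Ncoa3 rose in MII by 1.56 and the corepressor Ncor1 by 1.46, and both had negative changes in Btg4tm (-0.50 and -0.57) that were not called.

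NFYA is the subunit of the NF-Y trimer that recognizes the CCAAT box of promoters, in a complex with NFYB and NFYC. Nfya was measured at 73.7 and 64.2 scaled TPM in GV, 257 and 259 in MII, 119 and 112 in Btg4wt, and 36.4 and 57.6 in Btg4tm. The groups did not overlap, with MII highest and Btg4tm lowest. Nfya rose in MII by 1.89 on the log2 scale (SE 0.191, 95% confidence interval 1.45 to 2.33, limma adjusted p = 5.8e-05), a 3.71-fold increase and the largest among the factors under the median of ratios. A lower change was found for 99.6% of tested genes. In Btg4tm, Nfya fell against Btg4wt by 1.31 (SE 0.191, limma adjusted p = 0.00068), or 2.48-fold, and by 0.99, under the fold limit, without the first Btg4tm library.

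The injected and uninjected MII oocytes also had separate Nfya values. The Btg4wt libraries lay below the MII libraries by a log2 fold change of -1.16 (95% confidence interval -1.59 to -0.72), with an unadjusted p of 0.00027 and an adjusted p of 0.12 in limma, so it was not called. Only 0.358% of tested genes had a lower change in that comparison. The Btg4wt and MII values come from separate sets of tables, so the injection, the added BTG4 and the table set cannot be told apart.

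The partners of NFYA were not called in MII or in Btg4tm. Nfyb had a log2 fold change of 0.47 in MII and -0.31 in Btg4tm, and Nfyc -0.71 and 0.43. These genes were named after their values were seen. Nfyc stood at 117 ± 1.76 scaled TPM in GV and 71.1 ± 2.6 in MII, so that Nfya went from below Nfyc in GV to above it in MII. Of 15 genes in this list of NF-Y partners and ubiquitous promoter factors, 13 were tested, with 1 higher and 1 lower in MII (median 0.27), or 0 and 12 under scaling to mitochondrial RNA. In Btg4tm, 1 was higher and 0 were lower (median 0.20), or 7 and 0 under that scaling. By an unadjusted p in limma under 0.05, 5 of the 13 were higher and 2 lower in Btg4tm, beside 29.1% and 26.5% of all genes. In MII this rule gave 5 higher and 4 lower, beside 32% and 34.5%. Usf1, an E-box factor, fell in MII (-2.02) and rose in Btg4tm (1.77), and the CREB family factor Atf1 rose in MII (1.06).

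CTCF binds insulators and, with cohesin, anchors chromatin loops. Ctcf was measured at 46.1 and 44.5 scaled TPM in GV, 111 and 139 in MII, 98.3 and 83.5 in Btg4wt, and 85.9 and 104 in Btg4tm. The GV libraries alone were low, and the Btg4wt and Btg4tm libraries overlapped. Ctcf rose in MII by 1.43 (SE 0.151, limma adjusted p = 7.3e-05), from 45.3 ± 1.15 to 125 ± 19.6 (SD, n = 2). Between Btg4tm and Btg4wt the log2 fold change was 0.06, with a 95% confidence interval from -0.28 to 0.41 (limma adjusted p = 0.76), an interval that does not reach the fold limit in either direction. Its sign turned with quantile normalization (-0.18), and scaling to mitochondrial RNA gave a called rise (1.14).

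Ctcf itself was not called in Btg4tm. Of 20 other CTCF and cohesin loop factors, 17 were tested, with 6 higher and 0 lower in MII (median 0.69), or 0 and 11 under scaling to mitochondrial RNA. In Btg4tm, 0 were higher and 3 lower (median -0.67), or 2 and 0 under that scaling. By an unadjusted p in limma under 0.05, 10 were higher and 1 lower in MII, beside 32% and 34.5% of all genes. In Btg4tm this rule gave 1 higher and 13 lower, beside 29.1% and 26.5%. Wapl, which releases cohesin from chromatin, rose in MII from 68.8 ± 16.1 to 295 ± 16.1 scaled TPM (2.10, limma adjusted p = 1.4e-05). Esco1, an acetyltransferase of the cohesin ring, rose in MII by 1.61 and fell in Btg4tm by 1.03, from 280 ± 5.41 to 136 ± 8.33. Smc3, a ring subunit, rose in MII by 1.50 and had a change of -0.67 in Btg4tm that was not called. In Btg4tm, 15 of the 17 lay below the median of all genes under each of the 4 scalings, and in MII 13 or 14 lay above it. Most of these scalings shift all genes nearly alike, so such places are largely kept by construction.

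**Figure D3:**
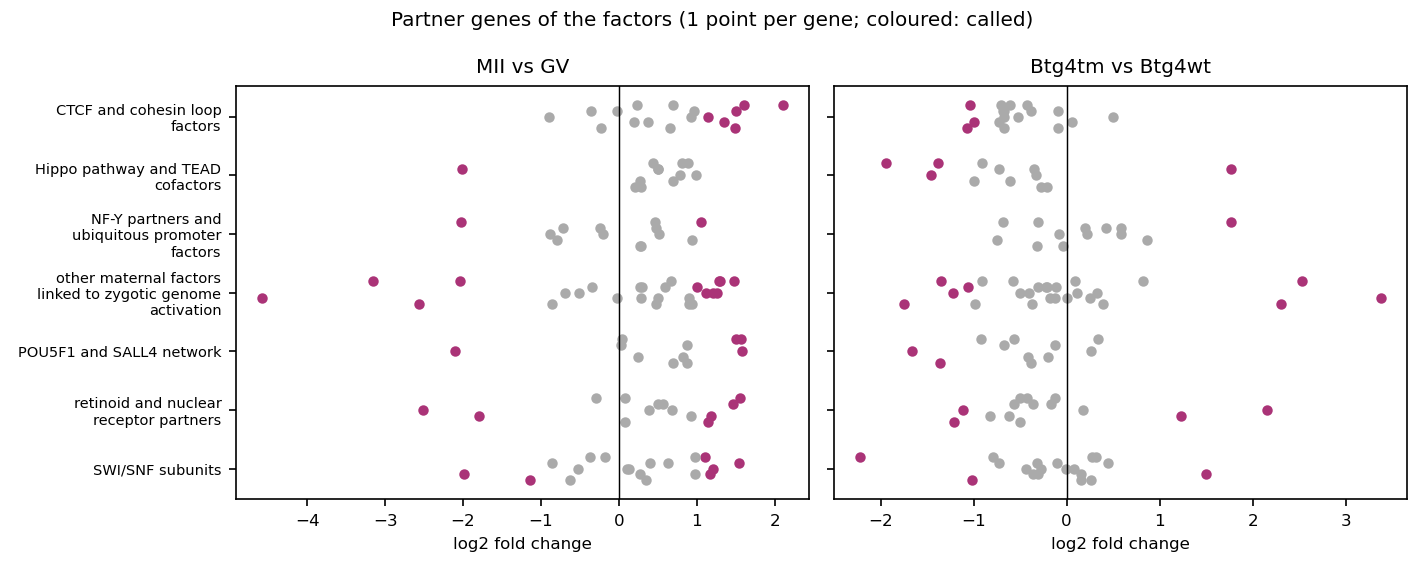
Log2 fold change (x axis) of the tested genes in 7 lists of partner genes (y axis) for MII against GV and Btg4tm against Btg4wt under the median of ratios. Each point is a gene and coloured points are called. The CTCF and cohesin genes lie mostly right of 0 in MII (13 of 17) and left of 0 in Btg4tm (15 of 17), while the SWI/SNF subunits lie on both sides. With scaling to mitochondrial RNA the medians of all 7 lists fall below 0 in MII and those in Btg4tm lie above 0.

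Ratios between factors within a library do not depend on how the library is scaled. The ratio of Ctcf to Yap1 was 5.38 and 4 in GV, 5.36 and 5.89 in MII, 3.76 and 3.68 in Btg4wt, and 13.6 and 14.7 in Btg4tm. The ratio of Ctcf to Nfya was 0.625 and 0.693 in GV, 0.432 and 0.535 in MII, 0.828 and 0.747 in Btg4wt, and 2.36 and 1.81 in Btg4tm. In both ratios the Btg4tm libraries stood above all the others, whatever factor a library is multiplied by. The pairs were not planned beforehand. Among the factors, Ctcf had the highest log2 fold change in Btg4tm (0.06), and Yap1 (-1.72) and Nfya (-1.31) the lowest. The high ratios in Btg4tm against Btg4wt thus follow from the choice of pairs. The ratio of Sall4 to Yap1 was 89.5 and 66.1 in Btg4tm and between 27.1 and 46.7 in the other 6 libraries. The ratio of Nfya to Yap1 reached 12.4 and 11 in MII but 4.54 and 4.93 in Btg4wt, with 8.6 and 5.77 in GV and 5.79 and 8.11 in Btg4tm. These ratios were not tested.

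Ratios between a factor and a partner are given for pairs chosen after their values were seen. In each pair the partner changed opposite in sign to the factor under the median of ratios, so the shifts follow from that choice. Other partners, such as the SWI/SNF subunit Smarcc1 and Nfyb, changed in the same direction as Smarca4 and Nfya. The ratio of Wwtr1 to its paralogue Yap1 was 1.12 and 0.766 in GV, 0.068 and 0.0678 in MII, 0.0614 and 0.0697 in Btg4wt, and 0.929 and 1.46 in Btg4tm. The message of TAZ was thus near that of YAP1 in GV and Btg4tm and far below it in MII and Btg4wt. The ratio of Smarcb1 to Smarca4, subunits of the same complexes, was 3.54 and 2.7 in GV, 0.516 and 0.391 in MII, 0.442 and 0.431 in Btg4wt, and 3.48 and 2.87 in Btg4tm. The ratio of Nfyc to Nfya was 1.57 and 1.85 in GV, 0.27 and 0.282 in MII, 0.598 and 0.613 in Btg4wt, and 2.41 and 1.75 in Btg4tm. For the last 2 pairs the partner stood above the factor in all GV and Btg4tm libraries and below it in all MII and Btg4wt libraries.

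The signs of the factors depended on scaling. Apart from quantile normalization, each scaling multiplies a whole library by a single number, which shifts the log2 changes of all genes nearly alike. The place of a factor beside the median of all genes is then largely kept by construction and does not measure stability. In MII against GV the all-gene median was -0.13 with the TPM as deposited, 0.27 with quantile normalization and -1.74 with scaling to mitochondrial RNA. For Btg4tm against Btg4wt these medians were -0.0045, -0.18 and 0.88. In Btg4tm, 7 of the 8 factors lay below the median of all genes under each of the 4 scalings. In MII, 8 lay above it under the median of ratios and quantile normalization, 7 with the TPM as deposited and 5 with scaling to mitochondrial RNA.

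**Figure D4:**
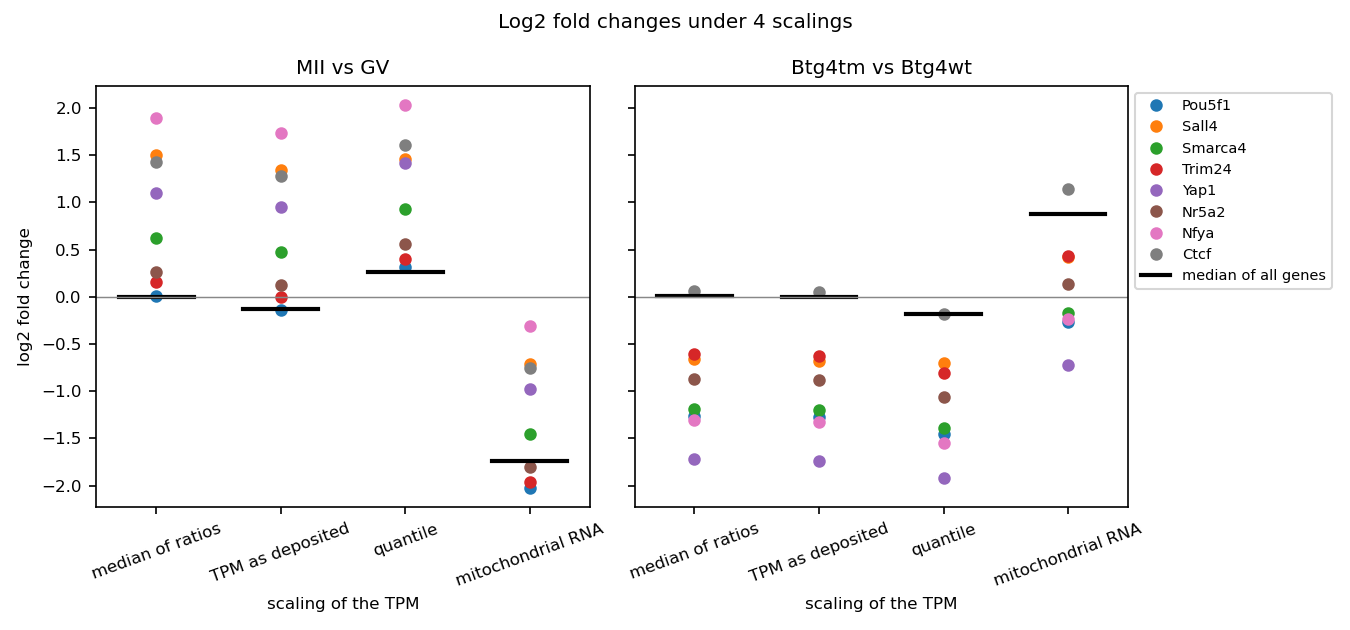
Log2 fold change (y axis) of the 8 tested factors (coloured points) under 4 scalings of the TPM (x axis), with black lines for the median of all genes. Scaling to mitochondrial RNA moves that median to -1.74 in MII against GV and 0.88 in Btg4tm against Btg4wt, and in the second panel 7 of the 8 factors stay below the line under every scaling shown. Most of these scalings shift all genes nearly alike, so the side of the line is largely kept by construction.

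In the comparison of Btg4wt with MII, 0 of the 8 factors and 0% of all genes were called in limma in the higher direction, and 0 and 0% in the lower. By an unadjusted p under 0.05 in limma, Pou5f1 was higher in Btg4wt (0.56) and Nfya (-1.16) and Ctcf (-0.45) were lower, beside 6.73% of all genes higher and 5.08% lower. The changes of the other 5 factors lay between -0.25 for Sall4 and 0.37 for Smarca4. For Yap1 the interval ran from -0.26 to 0.54 around 0.14.

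The levels in Btg4tm can also be set beside those of uninjected GV oocytes, as a description without a test. On the log2 scale Btg4tm minus GV was -0.70 for Pou5f1, -0.58 for Nfya, -0.49 for Yap1, -0.44 for Nr5a2, -0.29 for Trim24 and -0.19 for Smarca4. It was 0.59 for Sall4 and 1.05 for Ctcf. For 6 of the 8 factors the mean in Btg4tm was thus below that in GV, while Ctcf in Btg4tm (95 ± 12.8) stood near its level in Btg4wt (90.9 ± 10.5) and above GV (45.3 ± 1.15). The share of all genes lower in Btg4tm than in GV was not counted, so nothing particular to these factors can be read from it. These differences were taken under the median of ratios alone. GV and Btg4tm values come from separate sets of tables, so the stage, the injection, the mutant and the table set cannot be told apart. Btg4 RNA, which in injected oocytes could include the injected RNA, had 2643 ± 98.6 scaled TPM in GV, 5727 ± 145 in MII, 5190 ± 228 in Btg4wt and 3785 ± 236 in Btg4tm (SD, n = 2). Btg4 RNA was thus not higher in the injected groups than in uninjected MII oocytes. For the protein, the paper reports immunoblots in which both the wild-type and the mutant form were overexpressed.

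**Figure D5:**
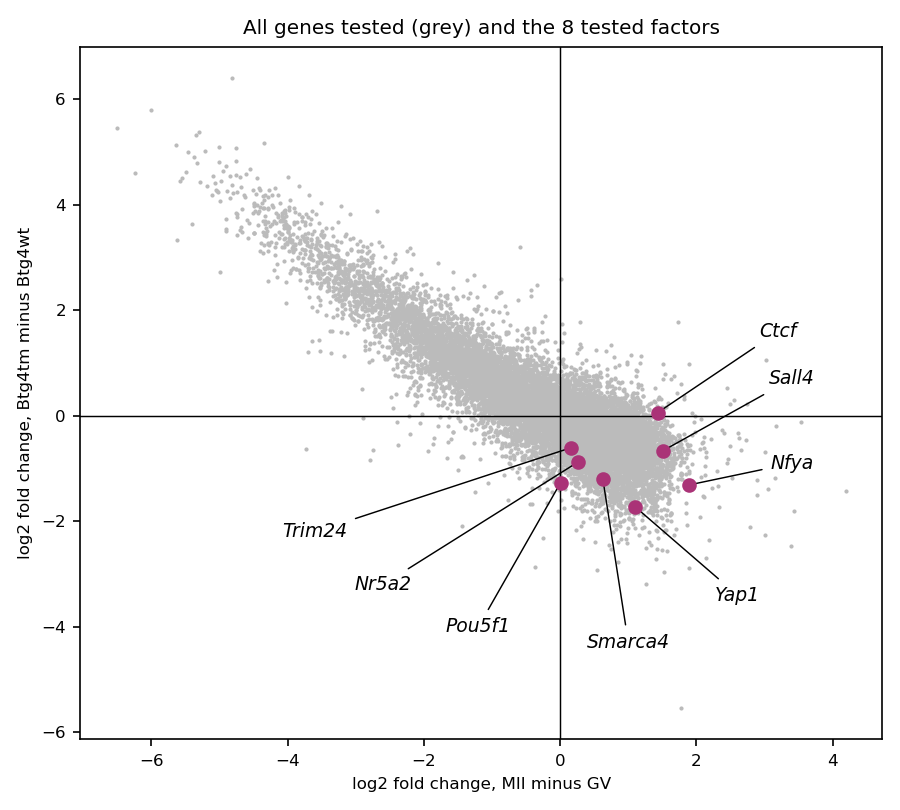
Log2 fold change of MII minus GV (x axis) against Btg4tm minus Btg4wt (y axis) under the median of ratios, for 13968 tested genes (grey) and the 8 factors (coloured and named). The factors lie at or right of 0 on the x axis, and all but Ctcf (0.06) lie below 0 on the y axis. Scaling to mitochondrial RNA moves all genes left and up.

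The patterns over the 8 libraries were compared by the root mean square difference of log2 values after each gene was centred on its own mean. Among the factors, Trim24 and Nr5a2 were closest (0.188), followed by Smarca4 and Nr5a2 (0.225), and Pou5f1 and Nfya were farthest apart (0.84). The candidates were 6811 tested genes averaging 10 scaled TPM or more. Those nearest to Sall4 were Arid1a (0.0642) and Srpk2 (0.0746), and those nearest to Yap1 were Cep192 (0.064) and Clock (0.072). Smarca4 was nearest to Cdk16 (0.0633) and Prdm1 (0.064), Trim24 to Slc39a9 (0.0428) and Gm47066 (0.0681), and Nr5a2 to Cds2 (0.0871) and Map3k4 (0.111). Pou5f1 was nearest to Bud13 (0.14) and Phc1 (0.145), and Ctcf to Jkamp (0.132) and Nckap1 (0.14). Nfya stood apart from these, since its nearest genes were 4930505K13Rik (0.358) and Tmem250-ps (0.359), and 0 genes lay within 0.25 of it, beside 52 for Pou5f1 and 782 for Trim24. Genes were centred but not scaled, so this measure depends on the size of the changes as well as their shape. A gene with large changes, such as Nfya, therefore tends to have fewer genes near it.

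Other maternal factors linked to genome activation were called in both directions, as were all genes. Over all genes, 12.5% were called higher and 23.9% lower in MII, and 18.1% and 7.88% in Btg4tm. Of 29 listed, 26 were tested, with 7 higher and 4 lower in MII (median 0.49), or 0 and 20 under scaling to mitochondrial RNA. In Btg4tm, 3 were higher and 4 lower (median -0.20), or 10 and 0 under that scaling. The genes named from this list fell in MII and rose in Btg4tm under the median of ratios. Zar1l, a paralogue of the RNA-binding maternal effect gene Zar1, fell in MII from 1051 ± 13.1 to 43.2 ± 6.68 scaled TPM and stood at 93.5 ± 5.19 in Btg4wt and 982 ± 37.7 in Btg4tm, where it rose (3.38, limma adjusted p = 8.9e-07). Chaf1b, a subunit of the histone chaperone CAF-1, fell in MII by 3.16 and rose in Btg4tm by 2.53. Dppa4, the partner of DPPA2, fell in MII by 2.57 and rose in Btg4tm by 2.30, from 5.2 ± 1.23 to 29.3 ± 1.95 scaled TPM.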

How the data were processed

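Polyadenylated RNA of 8 mouse oocyte libraries was analysed, 2 per group by the sample labels. Per the labels and the study's methods, the authors trimmed reads with Trim Galore 0.6.10, aligned them to GRCm38 with HISAT2 2.2.0, counted them on GENCODE M25 exons with featureCounts 2.0.6 and deposited TPM per gene symbol. TPM are shares of a library and keep no depth, so the study's DESeq2 test on counts could not be repeated.

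The deposited TPM of the 15962 genes present in both table sets (controls and injections) were divided by median-of-ratios factors and taken as log2(TPM + 1). Genes in one table set alone were not used (1422 of the controls, 486 of the injections). Fold changes are on this scale, which understates those of low genes. limma 3.58.1 in R 4.3.3 (lmFit over all 8 libraries, 4 residual degrees of freedom, eBayes with trend) was fitted to the 13968 genes that reached 1 TPM in 2 or more libraries, with Benjamini-Hochberg adjustment over all of them. The fit was tested on simulated data with known changes.

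The factors and the gene lists were chosen with earlier results of these data known. The named genes were all 10 factors, up to 3 called genes per list (largest absolute log2 fold change, mean of 10 scaled TPM or more) and the 2 genes nearest in pattern to each factor. Positions and transcripts came from GENCODE M21 on GRCm38. Alternatives were 3 other scalings, a pseudocount of 0.1, no filter or a filter at 5 TPM, only the 4 libraries compared, a replicate block, no trend, other call limits (an adjusted p under 0.01, no minimum fold change) and leaving out each library. The 3 scalings were applied to the gene lists as well, a step chosen after seeing the data.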

Additional observations from a re-analysis of the deposited data

How the results depend on the processing

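Of 38 recomputed counts of called factors whose main count was above 0, 35 stayed within 1.5 times that count and 3 moved. Where the main count was 0, 74 of 76 were again 0, which says nothing about stability. Scaling to mitochondrial RNA turned the 4 factors called higher in MII into 0 and gave 4 lower. In Btg4tm the same scaling gave 0 lower and 1 higher. Without a minimum fold change, 7 factors were lower in Btg4tm. Leaving out a library gave 3 to 4 factors higher in MII and 3 to 5 lower in Btg4tm. Of the recomputed log2 fold changes, 245 kept their direction and their side of the p-value limit, and 19 changed sign. With the sign kept, 5 no longer passed the p-value limit and 3 newly passed it. With mitochondrial scaling the changes in MII were -2.02 for Pou5f1, -0.71 for Sall4, -1.45 for Smarca4, -1.96 for Trim24, -0.98 for Yap1, -1.80 for Nr5a2, -0.31 for Nfya and -0.76 for Ctcf. Those in Btg4tm that turned were 0.42 for Sall4, 0.43 for Trim24 and 0.14 for Nr5a2. The cause was not tested. Pou5f1 in MII, at 0.01 in limma, was -0.14 with the deposited TPM, -0.12 without the second MII library, -0.001 and -0.0001 without the first or second Btg4tm library, and between -0.3057 and 0.3242 over all libraries left out, these ends being without the first and the second GV library. Ctcf in Btg4tm was -0.18 with quantile normalization, -0.06 without the second Btg4wt library, and between -0.0764 and 0.1957 over all libraries left out, these ends being without the second and the first Btg4tm library. Deviations of same-numbered libraries correlated between -0.05 and 0.06, so no strong shared deviation was seen over genes. Whether same-numbered libraries shared an animal, day or batch is unknown. With a replicate block 4 factors were again higher in MII and 4 lower in Btg4tm. A group reduced to 1 library is assumed in limma to vary like the others. Depth is unknown, and with 2 libraries per group no precision beyond the intervals given can be had.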
